A study of Mus musculus with 11 samples.

Results

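The genes described here are the 9 core genes of hepatic de novo lipogenesis and its control, Slc25a1, Acly, Acss2, Acaca, Acacb, Fasn, Me1, Thrsp and Mlxipl. They were chosen by name, with earlier results of these data known but by no threshold on their values, from the 36788 gene rows of one liver RNA-seq table. All 9 had a row, and all 9 were among the 12733 genes that were expressed highly enough to be tested. The livers came from wild-type C57BL/6 female mice over 12 weeks of age, all of them ovariectomized (OVX) and fed a high-fat diet. In the FSH group (n = 5, mice 1, 2, 3, 4 and 6) the animals also received follicle-stimulating hormone (FSH), which by the study's methods was injected daily into the peritoneum. In the OVX group (n = 6, mice 1 to 6) they received saline. The comparison asks how liver gene expression differs when FSH is given to animals that have no ovaries, so it holds no animal with ovaries, none on ordinary chow and no males.

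De novo lipogenesis turns surplus carbohydrate into fatty acids, and the liver is one of its principal sites. Citrate leaves the mitochondrion, is cleaved to cytosolic acetyl-CoA, and is then carboxylated and elongated to palmitate at the expense of NADPH. The pathway is governed at the level of transcription mainly by SREBP-1c, which responds to insulin, and by ChREBP, the product of Mlxipl, which responds to glucose metabolites.

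The libraries held between 11410596 and 19909327 reads in FSH and between 10801891 and 16077442 in OVX, and the deepest was that of FSH mouse 1. Values are counts per 1000000 reads of a library (CPM), where 3 reads correspond to 0.151 CPM in the deepest and 0.278 CPM in the shallowest library, and the lowest member value in any liver rested on 427 reads. Summed hepatocyte markers lay between 95326 and 114020 CPM in FSH and between 88626 and 115310 CPM in OVX, and 0 of 7 of these markers had an adjusted p under 0.05 by limma or edgeR (1 at an unadjusted p). Of 7 adipocyte markers, 7 were below the expression filter, with Lep and Retn at 0 in every library. Summed Kupffer cell markers ranged from 91.9 to 249 CPM against 149 to 299, stellate markers from 231 to 304 against 261 to 338, endothelial markers from 115 to 173 against 135 to 158 and erythroid markers from 464 to 790.0 against 425 to 1009, and 0 of these 21 genes passed by limma or edgeR (4 were lower at an unadjusted p under 0.05). Cholangiocyte markers ranged from 47.6 to 69.4 CPM in FSH and from 38.3 to 55.7 in OVX, with 1 of 5 higher (Krt7, log2 fold change 0.69, adjusted p = 0.00731, limma). Pancreatic acinar markers ranged from 10.5 to 15.2 against 7.86 to 13.7 CPM, and 4 of 5 were below the filter. In whole liver, fewer cells of a type and less RNA per cell cannot be told apart.

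Of the 9 members, 7 rose by more than 2-fold with FSH and 0 fell (limma on log2 CPM, adjusted p under 0.05 and log2 fold change over 1). Across all genes tested 0.887% were called higher and 1.83% were called in either direction by the same thresholds. An adjusted p under 0.05 with a higher level was found for 8 of 9 members, against 6.19% of all genes, and the member that did not pass was the regulator Mlxipl. The median log2 fold change of the members was 1.62, while that of all genes was 0.02. Added together, the members took up 6016 ± 1764 CPM in FSH and 1901 ± 564 CPM in OVX (mean ± SD, n = 5 and n = 6). For 7 of 9 members every FSH liver lay above every OVX liver, a pattern found in 3.95% of all genes (6.67% of all genes did not overlap in either direction). No member was lower at an unadjusted p under 0.05, and edgeR on the recovered reads gave the same counts of 7 members called and 0 lower.

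**Figure D1:**
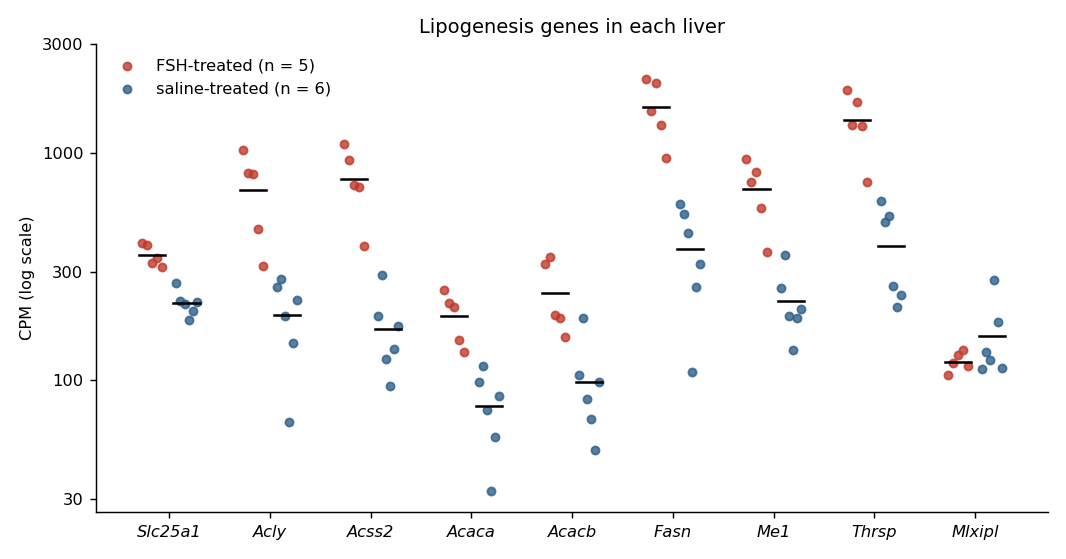
CPM of each of the 9 members on a log axis, with a point for each liver and a bar at the group mean, FSH (n = 5) beside OVX (n = 6). The FSH livers lay above all OVX livers for 7 genes, overlapped them for Acacb and lay within or below their range for Mlxipl.

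The promoters of 3 members are shown as examples, Fasn and Thrsp from the genes that rose and Mlxipl as the one that did not pass, and both the genes and the window were picked after the matches were seen. Each line gives the 120 bases before the RefSeq start site (GRCm38.p6), read 5′ to 3′ in the direction of the gene. The Thrsp stretch lies inside the annotated gene, which reaches to position 97417730. Capitals mark CCAAT on either strand, the box bound by NF-Y next to many SREBP sites, and the E-box CACGTG. The Fasn stretch lies at chr11:120824548-120824667 on the minus strand, the Thrsp stretch at chr7:97417551-97417670 on the minus strand and the Mlxipl stretch, at the upstream of its start sites, at chr5:135089770-135089889 on the plus strand.
Fasn: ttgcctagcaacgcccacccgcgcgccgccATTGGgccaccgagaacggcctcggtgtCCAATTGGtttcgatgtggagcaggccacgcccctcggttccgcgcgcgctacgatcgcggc
Thrsp: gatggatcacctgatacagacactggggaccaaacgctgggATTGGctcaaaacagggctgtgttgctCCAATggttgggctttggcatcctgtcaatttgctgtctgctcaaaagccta
Mlxipl: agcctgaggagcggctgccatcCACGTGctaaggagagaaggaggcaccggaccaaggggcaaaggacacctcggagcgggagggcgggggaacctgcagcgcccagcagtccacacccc

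Within 250 bases before the start, searched on both strands, Fasn held CCAAT 3 times (2 of these overlap) and Thrsp held it 2 times. Of the 11 start sites that the table gives for the 9 members, 7, each of a different member, held CCAAT, against 33.8% of 32851 RefSeq promoters. Mlxipl, which did not pass the test, was among these members, with CCAAT at -173 to -169, upstream of the stretch printed. The 2 members without CCAAT in the window, Acly and Acaca, both rose by more than 2-fold. Of the 11 start sites, those of Acly, Fasn and Slc25a1 and the upstream site of Mlxipl lie at the annotated 5′ end. The others lie inside the gene, namely the sites of Acaca, Acacb, Acss2 and Thrsp, the 2 sites of Me1 and the downstream site of Mlxipl. The CCAAT matches of Acss2, Thrsp, Acacb and Me1 lie inside the annotated genes, and the annotated 5′ ends of Acaca and Acacb were not searched. The GC box GGGCGG was found at 5 of the 11 sites and in 32.7% of promoters, and the E-box CACGTG at 2 sites (of Mlxipl and Slc25a1) and in 6.02% of promoters. The SRE-like letters TCACNCCAC were found at 1 site (the downstream site of Mlxipl) and in 1.05% of promoters. A ChREBP-type element (CANGNG and CNCNTG with 5 free bases between them, which can contain an E-box) was found at 0 of the 11 sites and in 0.454% of promoters. A DR4 element of the kind bound by LXR and thyroid hormone receptor (AGGTCA repeated after 4 free bases) was found at 0 of the 11 sites and in 0.0152% of promoters. These are matches of letters in a short window and do not show binding.

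Slc25a1 encodes the mitochondrial citrate carrier, which exports the citrate from which cytosolic acetyl-CoA is made. Its level was 403, 395, 328, 345 and 313 CPM in FSH mice 1, 2, 3, 4 and 6. In OVX its lowest level was 185, its median 219 and its highest 268 CPM. Every FSH liver exceeded every OVX liver, and the spread within groups was the smallest among the members that rose, with a coefficient of variation of 11.2% in FSH and 12.7% in OVX. The means of 357 ± 40.0 and 219 ± 27.8 CPM differed 1.63-fold (log2 fold change 0.70, SE 0.10, 95% CI 0.49 to 0.92, adjusted p = 0.000545 by limma). It therefore passed the p threshold but not the 2-fold threshold. The exact two-sided permutation test over livers gave p = 0.00433, the smallest value that 5 against 6 livers allow. The same smallest value was obtained for each of the 7 members whose groups did not overlap.

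Acly, ATP citrate lyase, splits the exported citrate into acetyl-CoA and oxaloacetate. Its level was 1025, 814, 809, 460.2 and 317 CPM in FSH mice 1, 2, 3, 4 and 6. In OVX the lowest level was 65.8, the median 208 and the highest 278 CPM. The groups did not overlap, although FSH mouse 6 lay only 1.14-fold above the highest OVX liver. Mean levels were 685 ± 289 CPM in FSH and 194 ± 78.6 CPM in OVX, and the log2 fold change was 1.84 (SE 0.35, 95% CI 1.08 to 2.59, adjusted p = 0.00406, limma).

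Acss2 makes acetyl-CoA from acetate in the cytosol and so supplies the same pool by another route. It was measured at 1085, 924, 717, 705 and 389.7 CPM in FSH mice 1, 2, 3, 4 and 6. Its OVX levels ran from 94.4 through a median of 155 to 291 CPM. All FSH livers lay above all OVX livers, and the lowest FSH liver was 1.34-fold above the highest OVX liver. Mean levels were 764 ± 262 and 168 ± 69.3 CPM, a log2 fold change of 2.19 (SE 0.27, 95% CI 1.61 to 2.78), and its adjusted p of 0.000153 (limma) was the lowest of the 9 members. Acss2 overlaps Gss on the other strand, and the use of strand in counting is not stated. Gss had 47.5 CPM in FSH and 82.9 CPM in OVX, a log2 fold change of -0.81 (adjusted p = 0.00126, limma), which is opposite to that of Acss2.

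Acaca and Acacb encode the acetyl-CoA carboxylases ACC1 and ACC2. ACC1 makes the cytosolic malonyl-CoA used for synthesis, whereas ACC2 sits at the mitochondrion, where its malonyl-CoA restrains fatty acid import for oxidation. Acaca was measured at 249.8, 218, 209, 151 and 133 CPM in FSH mice 1, 2, 3, 4 and 6, against 32.5 to 115 CPM in OVX with a median of 79.7. The groups did not overlap, and the means of 192 ± 48.9 and 76.8 ± 29.5 CPM gave a log2 fold change of 1.38 (SE 0.27, 95% CI 0.81 to 1.95, adjusted p = 0.00406, limma). Acacb was measured at 324, 348, 193, 187 and 154 CPM in FSH mice 1, 2, 3, 4 and 6, against 49.5 to 188 CPM in OVX with a median of 90.5. Its groups overlapped, since OVX mouse 2 lay above FSH mice 4 and 6, so that 3 of 5 FSH livers exceeded all OVX livers. The means of 241 ± 88.1 and 98.5 ± 48.3 CPM gave a log2 fold change of 1.34 (SE 0.29, 95% CI 0.72 to 1.95, adjusted p = 0.00838, limma), and the exact permutation test gave p = 0.013.

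Fasn, fatty acid synthase, builds palmitate from malonyl-CoA and NADPH. Its level was 2103, 1530.2, 2015, 1318 and 949 CPM in FSH mice 1, 2, 3, 4 and 6. In OVX the lowest level was 109, the median 383 and the highest 593 CPM. The separation was the widest among the members, with the lowest FSH liver 1.6-fold above the highest OVX liver. The means of 1583 ± 483 and 377 ± 182 CPM gave the largest log2 fold change of the 9 members, 2.20 (SE 0.36, 95% CI 1.44 to 2.96, adjusted p = 0.00139, limma), which was the 9th highest of the 12733 genes. The interval of Fasn contained that of Acss2, so these fold changes were not told apart.

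Me1, the cytosolic malic enzyme, yields NADPH while converting malate to pyruvate. Its level was 934, 743, 825, 573 and 367 CPM in FSH mice 1, 2, 3, 4 and 6, while OVX livers held 136 to 354 CPM with a median of 199. The groups did not overlap, but only narrowly, the lowest FSH liver lying 1.04-fold above the highest OVX liver. The log2 fold change was 1.62 (SE 0.24, 95% CI 1.11 to 2.14, adjusted p = 0.000755, limma), from means of 688 ± 223 and 222 ± 74.9 CPM.

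Thrsp, also called Spot 14, is a small protein without known catalytic activity that accompanies lipogenic induction and responds to thyroid hormone. It was measured at 1883, 1326, 1671, 1303 and 743 CPM in FSH mice 1, 2, 3, 4 and 6. OVX livers held 209.8 to 611 CPM with a median of 376. All FSH livers were higher, by 1.22-fold from the lowest FSH to the highest OVX liver. The means of 1385 ± 433 and 389 ± 174 CPM gave a log2 fold change of 1.89 (SE 0.30, 95% CI 1.26 to 2.52, adjusted p = 0.00108, limma).

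Mlxipl encodes ChREBP, the transcription factor that drives glycolytic and lipogenic genes when glucose is plentiful. Its level was 105, 118, 129, 136 and 115 CPM in FSH mice 1, 2, 3, 4 and 6. In OVX mice 1 to 6 it was 112, 134, 123, 277, 179 and 113 CPM. The FSH livers were close to each other (coefficient of variation 9.97%), while the OVX livers were spread (41.0%), with OVX mice 4 and 5 above the rest and above every FSH liver. The means of 121 ± 12.0 and 156 ± 64.1 CPM gave a log2 fold change of -0.30 (SE 0.20, 95% CI -0.71 to 0.12, adjusted p = 0.385, limma, and p = 0.286 by the exact permutation test). The upper end of that interval, 0.12, lay below the lower end of the interval of each other member. Deposited values are per gene, so the ChREBP isoforms made from the separate start sites could not be told apart.

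**Figure D2:**
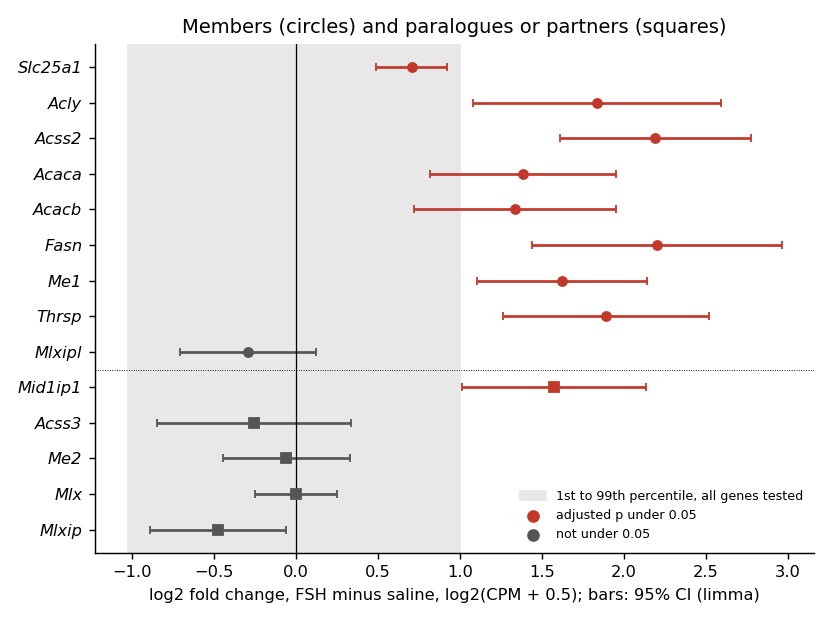
Log2 fold change of FSH over OVX with its 95% confidence interval from limma, for each member (circles) and for 5 paralogues and partners (squares). A grey band marks the 1st to 99th percentile of all genes tested, -1.03 to 0.999, and a line marks 0. The points of 7 members lay above 1, Slc25a1 lay at 0.70 and Mlxipl at -0.30 with an interval across 0.

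Because genes differ in length, levels were compared between genes only after division by the length of the principal transcript. On that scale of CPM per kilobase, Thrsp had the highest level in both groups, 1085 ± 339 in FSH and 305 ± 136 in OVX. In FSH it was followed by Acss2 at 261 ± 89.4, Slc25a1 at 214 ± 24.0, Me1 at 209 ± 67.7, Fasn at 158 ± 48.0 and Acly at 156 ± 65.7 CPM per kilobase. Fasn and Acly, and likewise Slc25a1 and Me1, differed by far less than their SD. Lowest in FSH were Mlxipl at 33.3 ± 3.32, Acacb at 27.4 ± 10.02 and Acaca at 20.2 ± 5.14. In OVX the second place after Thrsp was held by Slc25a1 at 131 ± 16.7, followed by Me1 at 67.4 ± 22.8, Acss2 at 57.4 ± 23.7, Acly at 44.1 ± 17.9, Mlxipl at 43.1 ± 17.7 and Fasn at 37.6 ± 18.1, the last 5 lying within an SD of their neighbours. The carboxylases were again lowest, with Acacb at 11.2 ± 5.49 and Acaca at 8.08 ± 3.10. With the length of all annotated exons in place of the principal transcript Acss2 had 75.2 CPM per kilobase in FSH and came after Fasn, which had 145, and Acacb, with 25.03, came before Mlxipl, with 21.8, so the order depends on the gene model.

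Ratios of members within a liver, which do not depend on scaling between libraries, show whether the genes moved by equal amounts. For 6 ratios fixed by role, the group difference was tested by an exact two-sided permutation test with adjustment over the 6. Fasn relative to Acaca was 8.12 in FSH (geometric mean, range 7.0 to 9.62) and 4.60 in OVX (3.32 to 6.04). This ratio did not overlap between groups, with a log2 difference of 0.82 (exact permutation p = 0.00433, adjusted p = 0.0130). Fasn relative to Mlxipl was 12.6 in FSH (8.22 to 19.9) and 2.23 in OVX (0.394 to 5.28), a log2 difference of 2.50 (exact permutation p = 0.00433, adjusted p = 0.0130). Acly relative to Slc25a1 was 1.77 against 0.808, a log2 difference of 1.13 (exact permutation p = 0.013, adjusted p = 0.0260), but the adjusted p was 0.0571 without FSH mouse 1, 2, 3 or 4. The citrate carrier thus rose by a smaller factor than the enzyme that uses its product in the full set of livers.

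The other ratios did not pass the test. Acaca relative to Acacb was 0.817 in FSH and 0.791 in OVX, a log2 difference of 0.05 (exact permutation p = 0.857, adjusted p = 0.857), whose sign turned when FSH mouse 3, OVX mouse 2 or OVX mouse 4 was left out. Fasn relative to Acly was 2.41 against 1.87 (log2 difference 0.37, exact permutation p = 0.0606, adjusted p = 0.0909). Acly relative to Acss2 was 0.870 against 1.11 (log2 difference -0.36, exact permutation p = 0.130, adjusted p = 0.156), and the adjusted p was 0.0476 without OVX mouse 4. A p above the threshold does not show that these pairs moved by the same factor.

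**Figure D3:**
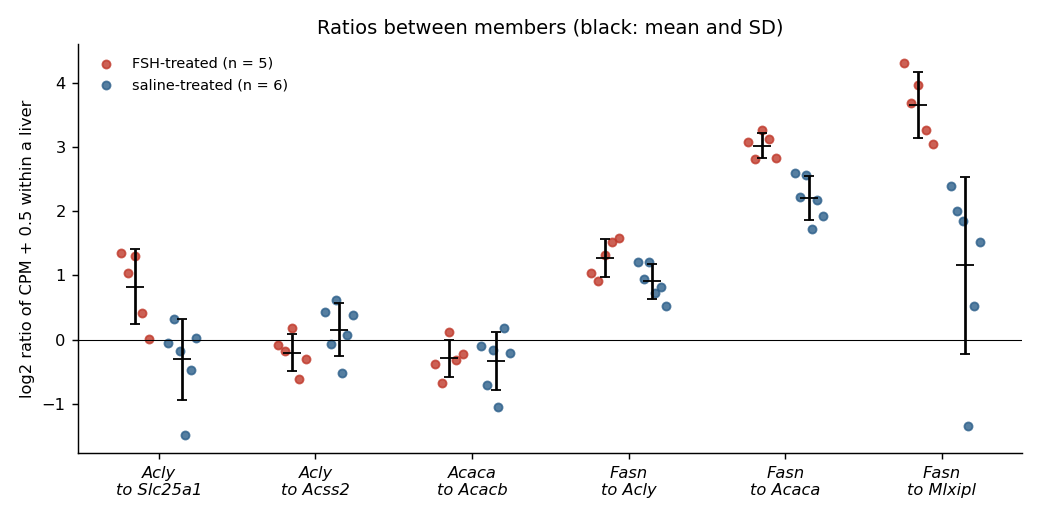
Ratio of CPM between pairs of members within each liver on a log axis, a point for each liver and a bar at the geometric mean. The FSH and OVX livers separated for Fasn to Acaca and Fasn to Mlxipl and overlapped for the other 4 ratios.

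The livers kept much the same order from member to member. Among the 8 members with a higher level in FSH, FSH mouse 1 was the highest FSH liver for 7 and FSH mouse 2 for 1, and FSH mouse 6 was the lowest for 8. OVX mouse 2 was the highest OVX liver for 5 and OVX mouse 1 for 3, while OVX mouse 4 was the lowest for 6 and OVX mouse 5 for 2. Averaged over these 8 genes, the log2 level relative to each gene's mean was 1.38, 1.14, 1.05, 0.70 and 0.22 in FSH mice 1, 2, 3, 4 and 6. In OVX mice 1 to 6 the average was -0.29, -0.10, -0.68, -1.57, -1.13 and -0.72. The groups did not overlap in this average, and OVX mouse 4, with the lowest lipogenic average, had the highest Mlxipl level. FSH mouse 1 also had the deepest library and FSH mouse 6 the shallowest library of its group. The part of depth in this order was not tested.

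**Figure D4:**
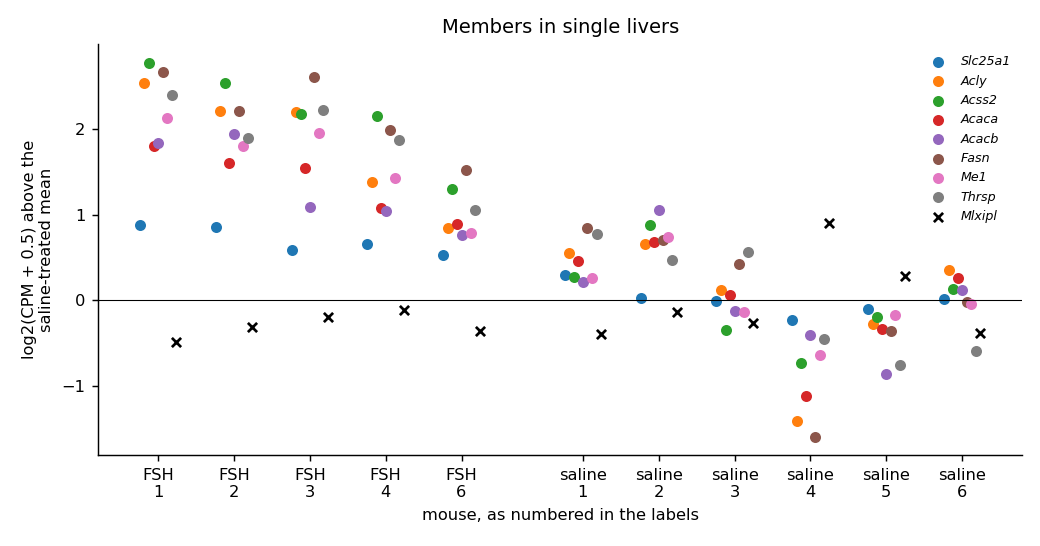
Log2 level of each member, on the scale used for limma, relative to that gene's mean in the OVX livers. Each of the 11 livers has a point for each gene, coloured by gene. FSH mouse 6 lay lowest of the FSH livers for the 8 genes that rose, and OVX mouse 4 lay lowest for 6 of these and highest for Mlxipl.

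As a description of this order, the correlation of each member with the mean of the others was computed after removal of the group means (Pearson's r, 11 livers that share their library depth and processing). It was 0.947 for Me1, 0.919 for Acss2, 0.915 for Acly, 0.902 for Acaca, 0.846 for Fasn, 0.797 for Acacb, 0.761 for Slc25a1 and 0.753 for Thrsp. For Mlxipl it was negative, at -0.694. Among all tested genes, those named here whose within-group pattern was most like the mean of the 9, each scaled by its own spread, were Pnpla3 (r = 0.951), Arhgef16 (0.950), Ttc23 (0.942) and Hmgb3 (0.934), followed by Phf19, Pclo, Nup107, Tdrd3 and Pgd (0.928 to 0.905). Likeness within groups did not go with a like difference between groups in every case. Pclo, Nup107 and Tdrd3 had log2 fold changes of -0.08, 0.09 and 0.06 and did not pass the test, and Pnpla3, a lipid droplet hydrolase, had 1.67 with an adjusted p of 0.0794 (limma). Ttc23 rose by 0.81 on the log2 scale (adjusted p = 0.000109).

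Close relatives of the members were read beside them, of which Mid1ip1 is also counted below among genes that control the enzymes, and Mlx and Mlxip among transcriptional regulators. Of 7 paralogues and partners, 5 were tested and 1 passed, against 10.6% of all genes with an adjusted p under 0.05, and their median log2 fold change was -0.06. Mid1ip1, the relative of Thrsp that promotes polymerization of acetyl-CoA carboxylase, was measured at 179, 105, 145, 123 and 73.9 CPM in FSH mice 1, 2, 3, 4 and 6 and at 19.9 to 64.3 CPM in OVX. Its groups did not overlap, and it rose by a log2 fold change of 1.57 (SE 0.26, adjusted p = 0.00164, limma). Mlx, the obligate partner of ChREBP, was at 29.3 ± 3.99 and 29.3 ± 4.38 CPM (95% CI of the log2 fold change -0.25 to 0.25, adjusted p = 1.00). Mlxip, the ChREBP relative MondoA, was at 3.68 ± 0.915 and 5.39 ± 1.61 CPM (log2 fold change -0.48, adjusted p = 0.135). The mitochondrial relatives Acss3 (log2 fold change -0.26, adjusted p = 0.617) and Me2 (-0.06, adjusted p = 0.881) did not pass the test, and Acss1 and Me3 were below the filter.

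Of 26 genes that supply carbon and NADPH, 9 rose and 0 fell (adjusted p under 0.05 by limma, also 9 and 0 by edgeR, and 13 and 0 at an unadjusted p), against 6.19% and 4.41% of all genes, and the median log2 fold change was 0.19. G6pdx, which opens the oxidative pentose phosphate pathway, rose from 6.28 ± 1.98 to 15.3 ± 8.25 CPM (log2 fold change 1.10, adjusted p = 0.0282, limma). Pgd, the next NADPH-yielding enzyme of that pathway, rose from 44.2 ± 10.3 to 73.7 ± 14.96 CPM (0.74, adjusted p = 0.0171). Dlat, a subunit of pyruvate dehydrogenase, rose by 0.73 (adjusted p = 0.00534), and Idh1, the cytosolic NADP-dependent isocitrate dehydrogenase, by 0.48 (adjusted p = 0.0203). Cs, citrate synthase, rose from 101 ± 7.98 to 144 ± 25.1 CPM (adjusted p = 0.0094). Only G6pdx exceeded 2-fold, and the count of 9 became 3 without FSH mouse 1 and 5 without FSH mouse 3.

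Of 24 tested genes that control the enzymes after transcription, 4 rose, 1 fell and 19 did not pass, against 6.19% higher and 4.41% lower among all genes, and the median log2 fold change was -0.07. Mlycd, which degrades malonyl-CoA, was at 130 ± 13.3 and 108 ± 6.84 CPM (log2 fold change 0.26, adjusted p = 0.0545, limma). Of the catalytic subunits of AMP-activated protein kinase, which inhibits the carboxylases, Prkaa2 rose by 0.42 (adjusted p = 0.0260), and Prkaa1 did not pass (-0.19, adjusted p = 0.356). Brca1, which binds phosphorylated ACC1, rose by 0.78 (adjusted p = 0.0335). Trib3, a pseudokinase linked to degradation of ACC, fell from 7.16 ± 3.01 to 2.69 ± 0.299 CPM (-1.19, adjusted p = 0.00243). The count of 5 became 3 (2 higher and 1 lower) without low-value filtering and with libraries thinned to equal depth. Without FSH mouse 2 or OVX mouse 3 it was also 3 (2 higher and 1 lower). Without FSH mouse 1, 3 or 4 or OVX mouse 4 it was 2 (1 higher and 1 lower).

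Among 27 transcriptional regulators of the pathway, 3 rose and 3 fell (6.19% of all genes were higher and 4.41% lower), with a median log2 fold change of -0.06. Srebf1, which encodes SREBP-1c, was measured per gene, so its isoforms could not be told apart. It ranged from 413 to 479 CPM in FSH and from 121 to 345 CPM in OVX, without overlap. It rose by a log2 fold change of 1.09 (SE 0.22, adjusted p = 0.00474, limma), whereas Mlxipl did not pass the test. Nfyb, a subunit of the CCAAT-binding factor NF-Y, rose by 0.61 (adjusted p = 0.0037), and Onecut1 by 0.87 (adjusted p = 0.0376). Nr0b2, the repressor SHP, fell from 102 ± 44.2 to 37.9 ± 11.1 CPM (-1.32, adjusted p = 0.0142). Nr1h3, which encodes the liver X receptor LXRα, was at 106 and 121 CPM (-0.19, adjusted p = 0.200).

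Of 15 tested targets usually assigned to ChREBP, other than the members, 3 rose, 1 fell and 11 did not pass, against 6.19% higher and 4.41% lower among all genes, with a median log2 fold change of 0.23. Arrdc4 (0.58, adjusted p = 0.00442, limma), the glucose transporter gene Slc2a2 (0.51, adjusted p = 0.0151) and the glucokinase regulator Gckr (0.49, adjusted p = 0.00166) rose by less than 2-fold. Gpd1, which links glycolysis to glycerol 3-phosphate, fell from 339 ± 46.0 to 155 ± 30.1 CPM (-1.14, adjusted p = 6.06e-05). Pklr, liver pyruvate kinase, was at 452 ± 88.9 and 283 ± 96.4 CPM and did not pass (0.74, adjusted p = 0.0536).

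Genes that elongate and desaturate the product, together with further SREBP-1c targets, had the highest median of the related lists. Of 16 tested, 9 rose and 1 fell (6.19% of all genes were higher and 4.41% lower), and the median log2 fold change was 1.06. More than 2-fold higher were 7 of the 16, against 0.887% of all genes. Srebf1 itself belongs to this list as well as to the regulators and is counted among both the 9 and the 7. Elovl6, which elongates palmitate to stearate, rose from 112 ± 60.2 to 683 ± 272 CPM (2.72, adjusted p = 0.00077, limma), by more than any of the 9 members on the log2 scale. Scd1, the desaturase that makes oleate, rose from 4910 ± 2077 to 14660 ± 5121 CPM (1.58, adjusted p = 0.00223). Insig2, which retains SREBP precursors in the endoplasmic reticulum, fell from 335 ± 57.2 to 124 ± 28.4 CPM (-1.44, adjusted p = 2.07e-05).

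**Figure D5:**
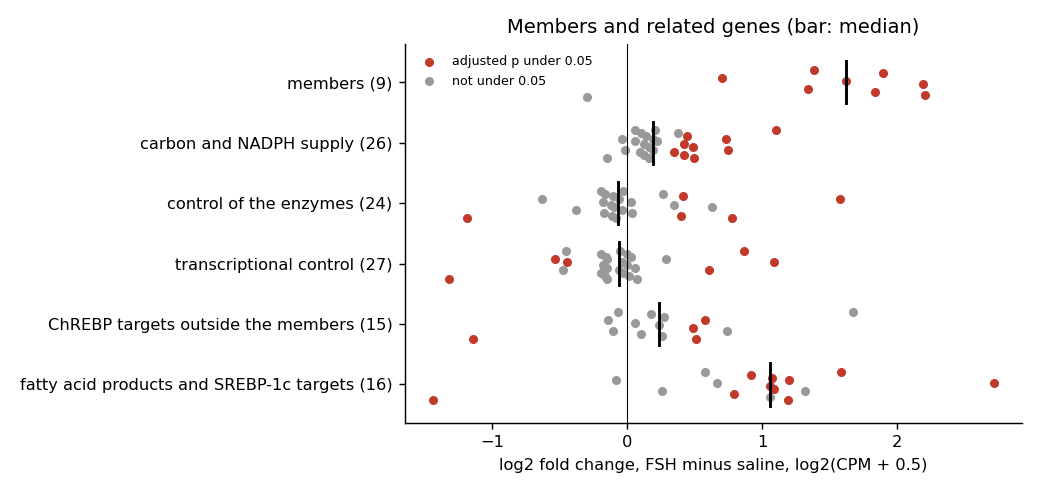
Log2 fold change of FSH over OVX for every tested gene of the member list and of 5 related lists, a point for each gene (red where the adjusted p was under 0.05) and a bar at the list median. The medians were 1.62 for the members and 1.06 for fatty acid products and SREBP-1c targets, and between -0.07 and 0.23 for the other 4 lists plotted.

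Clock genes and genes induced by fasting were read beside the members, because lipogenic transcripts are known to follow the hour of the day and feeding. Of 18 clock genes tested, 6 rose and 6 fell (6.19% of all genes were higher and 4.41% lower), with a median log2 fold change of 0.06. Dbp was at 83.0 CPM in FSH and 4.3 CPM in OVX (4.02, adjusted p = 1.15e-07, limma) and Per3 rose by 2.61, while Arntl was at 3.33 and 18.1 CPM (-2.33, adjusted p = 1.14e-05). Of 15 genes induced by fasting, 0 rose and 4 fell (6.19% of all genes were higher and 4.41% lower), with a median of -0.48. At an unadjusted p under 0.05, 2 were higher and 8 lower, and edgeR gave 1 and 4. Txnip and Fgf21 belong to this list and to the ChREBP targets. Igfbp1 fell by 1.5 on the log2 scale (adjusted p = 0.0093), Angptl4, an inhibitor of lipoprotein lipase, by 0.99 (adjusted p = 0.0162) and Cyp4a10, a fatty acid hydroxylase, by 0.82 (adjusted p = 0.0301). The hour of collection and the fed state are not given in the labels or methods, and their part in the lipogenic differences was not tested.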

How the data were processed

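RNA was taken from whole liver of 11 mice. According to the study's methods, NEBNext Ultra libraries were read as pairs on an Illumina HiSeq instrument. The submitters' processing notes name the build mm10 and the tools FastQC 0.11.2, Trim Galore 0.3.3, cutadapt, STAR and RSEM. The authors deposited one CPM table (each library scaled to 1000000 reads), and the use of strand is not given in the sources used here. Dividing each library by its smallest step gave whole reads for 100% of values (tolerance 0.02 reads). Identifiers were matched without version to GENCODE M21 (GRCm38), which left 1233 of 36788 unnamed.

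The 12733 genes whose mean over all livers reached 0.5 CPM entered limma 3.58.1 (R 4.3.3) as log2(CPM + 0.5) (eBayes with trend, two-sided, Benjamini-Hochberg over all genes tested). Called genes passed the study's thresholds, 0.05 for the adjusted p and 2-fold for the size. Fold changes on this scale understate those of low genes. Single members and ratios had an exact permutation test over all 462 splits. Beyond the traits that all animals share, the labels tell those of a group apart only by number. The p-values therefore measure the spread between these livers, and 0 pairs of livers agreed within sampling noise. The edgeR 4.0.16 quasi-likelihood test on the recovered read counts was added after the data were seen and called 311 genes, 7 of them members. Functions were tested on simulated data.

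The members and lists were chosen with earlier results of these data known. Named beside the members were fixed genes of each list and up to 4 per list (3 for clock and fasting genes) with the largest absolute log2 fold change among those with an adjusted p under 0.05. Some genes that this rule names are not reported here. Motifs were searched in RefSeq promoters (9 of 9 members matched, 11 start sites), and the printed window of 120 bases was chosen after the matches were seen.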

Additional observations from a re-analysis of the deposited data

Results flagged for a closer look

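Among 32 sets of group values examined, 1 held a liver set apart from the rest of its group, by Dixon's criterion at 95%, and chance gives about 1 in 20. Acss3, a mitochondrial relative of Acss2, was at 11.7 CPM in FSH mouse 2, while the next highest FSH liver held 5.88 CPM. The gap was 0.845 of the group's range, above the critical value of 0.71 for 5 livers.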

How the results depend on the processing

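All 216 member fold changes under the alternatives listed here kept their direction and their side of the p threshold: other pseudocounts, filters, scalings, no trend, array weights, voom, edgeR, thinning, the block and leaving out each liver. Acacb had the highest adjusted p among members that passed (0.0293), and Mlxipl ranged from -0.41 to -0.11 on the log2 scale. Members called numbered 7 in every leave-one-out fit. Genes called numbered 233, with 197 to 273 when 1 liver was left out and 707 at 1.5-fold. The counts per list with 1 liver left out ran from 3 to 10 for carbon and NADPH supply (9 with all livers) and from 2 to 5 for control of the enzymes (5 with all livers), where no filter gave 3 and thinning gave 3. The log2 ratio of Acly to Slc25a1 ran from 0.90 to 1.33, that of Acly to Acss2 from -0.49 to -0.25 and that of Acaca to Acacb from -0.09 to 0.15 when 1 liver was left out, the last turning to -0.05 without FSH mouse 3, -0.03 without OVX mouse 2 and -0.0945 without OVX mouse 4. The cause was not tested. Mice of the same number share only a number: deviations of same-numbered livers correlated between -0.0662 and 0.356, and 1 of 5 pairs matched best with itself. With the replicate number as a block, 251 genes were called, 2 paralogues and 3 control genes passed, and the log2 ratios were 1.10 for Acly to Slc25a1 (adjusted p = 0.1875), 0.81 for Fasn to Acaca (adjusted p = 0.125) and 2.37 for Fasn to Mlxipl (adjusted p = 0.125), by an exact sign-flip test that cannot go below 0.0625 with 5 pairs. Other scalings left the median log2 fold change of all genes between -0.0019 and 0.021. Depth did not limit the members, but Acss1 and Me3 rested on at most 6 reads a liver.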
